A study of Homo sapiens with 12 samples.

Results

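ARHGEF11 and ARHGEF12 encode a pair of related guanine nucleotide exchange factors for the small GTPase RhoA, and their exons were followed in GS689.Li, written GS689 below, and PC3E. Both are human lines of PC-3 prostate cancer ancestry, GS689 with mesenchymal and PC3E with epithelial character. Each line was profiled by RNA-seq, which reads cDNA fragments of all transcripts, and by RASL-seq, which ligates probe pairs across chosen splice junctions and counts the products, with 3 libraries per line and assay. The genotype label is wild type throughout. Both lines grew in DMEM/F12 with 10% serum, non-essential amino acids and 400 µg/ml of the antibiotic G418, and were collected from 10 cm dishes the day after plating. An event is 1 exon between 1 pair of flanking exons, for which reads of the included and of the skipped form were counted. Events were given to a gene by matching strand, exon length and both intron lengths in an annotation. This found 40 of 114816 events in the RNA-seq table, 21 of them in 13 exons of ARHGEF11 and 19 in 15 exons of ARHGEF12. In the RASL-seq table it found 1 of 2023 events, exon 4 of ARHGEF12, and 0 events of ARHGEF11.

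The RNA-seq table numbers its libraries as set 1 and set 2, 3 each, and names no line for either. Its values are therefore given for each library with no test, and the lines are compared in RASL-seq only. RASL-seq library totals were 615758 to 954120 counts in GS689 and 754338 to 911476 counts in PC3E. The replicate labels do not say that the libraries came from separate cultures, so p-values measure a spread between libraries that may be technical. In RASL-seq PC3E replicate 2 was unlike the rest: 86 events passed the test without it, against 66 with all 6 libraries. In RASL-seq 4 of 13 listed epithelial markers were in the table, and their summed level was 341 to 422 CPM (counts scaled to a library total of 1000000) in GS689 and 828 to 1242 CPM in PC3E. The 3 of 9 listed mesenchymal markers in the table summed to 4489 to 4600 CPM in GS689 and 186 to 224 CPM in PC3E. In the RNA-seq table the 13 epithelial markers summed to 629 to 817 CPM in set 2 and 3618 to 4049 in set 1. The 7 mesenchymal markers found there summed to 1849 to 1867 CPM in set 2 and 517 to 689 in set 1. No gene of the 2 lists that was in a table was at 0 in every library of a line or set. Of 4 stromal and blood genes, COL1A1 and PTPRC were in the RNA-seq table and summed to 55.7 to 76.7 CPM in set 2 and 7.82 to 8.94 in set 1.

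Both proteins, known as PDZ-RhoGEF (ARHGEF11) and LARG (ARHGEF12), link receptors to RhoA. An RGS-like domain binds the active G protein alpha subunits encoded by GNA12 and GNA13. A catalytic DH and PH domain pair then loads RhoA with GTP, and RhoA acts through ROCK kinases and formins on actomyosin tension. A PDZ domain near the amino terminus binds plexin-B receptors. The carboxy-terminal region that follows the PH domain of ARHGEF11 is known to bind the kinase PAK4 and the tight junction protein ZO-1 (TJP1).

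The 4 exons below are the ones most of the results turn on, a pair in each gene, chosen with their values known. They are shown so that their length, reading frame and kinship can be seen. Each runs 5′ to 3′ as spliced in transcripts of GENCODE release 29, with the exon in capitals and 20 bases of each neighbouring exon in lower case.
ARHGEF11 exon 38: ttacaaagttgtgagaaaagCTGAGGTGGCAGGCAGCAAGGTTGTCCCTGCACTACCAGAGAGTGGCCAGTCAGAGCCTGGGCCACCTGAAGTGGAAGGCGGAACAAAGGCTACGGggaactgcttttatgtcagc
ARHGEF12 exon 4: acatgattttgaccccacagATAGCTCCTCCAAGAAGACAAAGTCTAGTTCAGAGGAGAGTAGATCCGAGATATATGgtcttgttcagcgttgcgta
ARHGEF11 exon 8: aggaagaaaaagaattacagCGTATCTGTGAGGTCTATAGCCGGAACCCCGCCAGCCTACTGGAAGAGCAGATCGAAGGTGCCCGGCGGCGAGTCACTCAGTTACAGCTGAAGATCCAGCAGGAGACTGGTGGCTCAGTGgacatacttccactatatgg
ARHGEF12 exon 10: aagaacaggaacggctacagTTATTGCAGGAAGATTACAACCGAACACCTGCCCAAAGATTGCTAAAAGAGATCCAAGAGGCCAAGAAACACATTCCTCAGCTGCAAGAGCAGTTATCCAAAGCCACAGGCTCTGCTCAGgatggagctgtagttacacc
Exons are numbered along the longest annotated transcript, which has 41 exons in either gene. On hg19, the build of the tables, ARHGEF11 lies on the minus strand of chromosome 1 and ARHGEF12 on the plus strand of chromosome 11. Exon 38 of ARHGEF11, at chr1:156908210-156908305, is coding, has 96 bases or 32 codons and holds no stop codon in the annotated frame. Exon 4 of ARHGEF12, at chr11:120280103-120280159, has 57 bases or 19 codons and is coding in some annotated transcripts and untranslated in others. Exon 8 of ARHGEF11, at chr1:156941489-156941608, and exon 10 of ARHGEF12, at chr11:120300421-120300540, are coding and have 120 bases or 40 codons each. Skipping any of the 4 leaves the number of bases a multiple of 3. Their G and C content was 61.5% in exon 38 and 59.2% in exon 8 of ARHGEF11, and 42.1% in exon 4 and 46.7% in exon 10 of ARHGEF12.

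Exon 38 of ARHGEF11 was nearly always included in set 2 and nearly always skipped in set 1. The inclusion level is the share of included transcripts after dividing each count by its effective length. For exon 38 it was 90.9%, 92.2% and 89.8% in the libraries of set 2, against 2.52%, 1.59% and 1.67% in those of set 1. The sets did not overlap, and their nearest libraries lay 87.3 percentage points apart. In set 2, inclusion counts were 429, 548 and 444 and skipping counts 22, 24 and 26. In set 1, inclusion counts were 10, 7 and 7 and skipping counts 199, 223 and 213. The 95% Wilson intervals, which cover counting error only, spanned 85.6% to 94.6% over set 2 and 0.769% to 4.61% over set 1, far smaller than the gap.

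The region around the exon gave the same picture junction by junction. The junction from exon 37 into exon 38 had 206, 276 and 223 reads in set 2, against 5, 3 and 3 in set 1. The junction that joins exon 37 directly to exon 39 had 22, 24 and 26 reads in set 2, against 199, 223 and 213 in set 1. Both leave the same splice site of exon 37, and together they gave 228, 300 and 249 reads in set 2 and 204, 226 and 216 in set 1. Scaled to the table total, these sums were 2.43, 3.02 and 2.61 CPM in set 2 and 1.87, 2.01 and 1.79 CPM in set 1. The sets did not overlap in the sum either. Counts summed per gene did not overlap in 48.3% of 10813 genes, 29.3% higher and 19.1% lower in set 2. The same share for junction sums was not counted. In GENCODE release 29, 3 transcripts hold exon 38 and 0 hold the junction from exon 37 to exon 39, although that junction carried most reads of set 1.

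**Figure D1:**
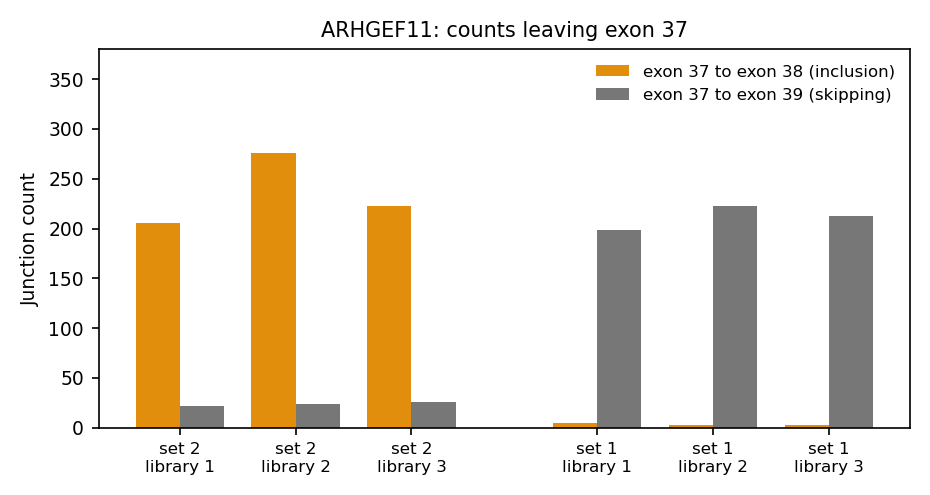
Reads of the ARHGEF11 junctions from exon 37 to exon 38 (inclusion) and from exon 37 to exon 39 (skipping) in each RNA-seq library, set 2 left of set 1, on a linear axis from 0. Inclusion reads were 206 to 276 in set 2 and 3 to 5 in set 1, and skipping reads were 22 to 26 in set 2 and 199 to 223 in set 1.

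A 137-base exon at chr1:156908941-156909077, between exons 37 and 38 and annotated only in a noncoding transcript, was also measured. Read against the direct junction from exon 37 to exon 39, its inclusion was 0%, 4.0% and 5.45% in set 2 and 0.251%, 0.668% and 0.930% in set 1. The lowest of these libraries had 22 counts and the sets overlapped. In the event that pairs exon 38 with this upstream exon, exon 38 had 230, 279 and 230 inclusion counts and 0 skipping counts in each library of set 2. The same event had 5, 4 and 4 inclusion counts and 1, 1 and 2 skipping counts in set 1, too few to describe a level. Its inclusion counts also take in reads of exon 38 that do not touch the 137-base exon. Between exons 37 and 38, the 137-base exon had 1, 2 and 7 inclusion counts against 206, 276 and 223 skipping counts in set 2.

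Over the whole RNA-seq table, 90656 events had at least 20 counts in each library, and the sets were apart by at least 5 points in 1.13% of them. Of the members, 36 of 40 had that depth, 17 in ARHGEF11 and 19 in ARHGEF12, and 2 of the 36 were apart by at least 5 points: exon 38 of ARHGEF11, higher in set 2, and exon 4 of ARHGEF12, lower in set 2. The shares over all events were 0.471% higher and 0.656% lower in set 2. In size of gap, exon 38 came 2nd among the 90656 events and 1st among the 427 that were at least 5 points higher in set 2. A gap of at least 80 points was seen in 0.00441% of events, 0.0011% higher and 0.00331% lower in set 2, and the 1 event higher by that much was exon 38. Sets that did not overlap at all, by any gap, made up 9.72% of events over the table and 4 of the 36 members. The other 2 of these 4 were exon 7 of ARHGEF11 and exon 15 of ARHGEF12, where the gaps were 1.14 and -0.17 points.

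**Figure D2:**
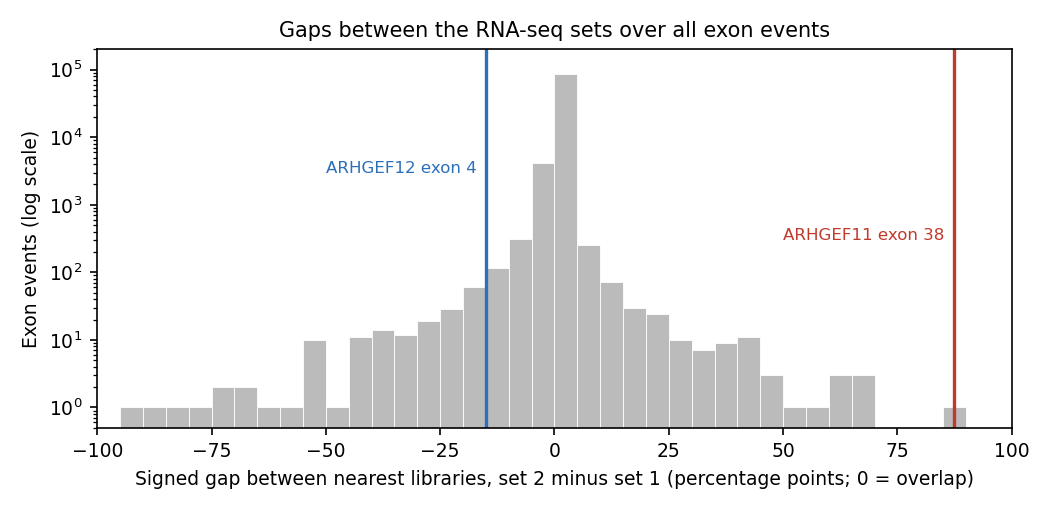
Number of RNA-seq exon events, on a log axis, by the gap between the nearest libraries of set 2 and set 1 in percentage points (set 2 minus set 1, with 0 for sets that overlap), for the 90656 events with at least 20 counts in each library. Lines mark the gaps of ARHGEF11 exon 38 at 87.3 points and of ARHGEF12 exon 4 at -14.9 points, the first at the far right edge of the distribution.

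Elsewhere in ARHGEF11, the sets overlapped at the other 6 events that had 20 counts in each library and an inclusion below 95% in some library. Exon 8, read with exon 7 upstream, was included at 56.9%, 68.2% and 55.8% in set 2 and 61.5%, 66.2% and 62.7% in set 1. Its inclusion counts were 222, 245 and 154 against skipping counts of 84, 57 and 61 in set 2. Set 1 had 220, 176 and 252 inclusion counts against 69, 45 and 75 skipping counts. Exon 8 thus mixed both forms in all 6 libraries, beside an exon 38 that was close to 1 form in each. Exon 5 had 93.5%, 94.0% and 100% in set 2 and 98.7%, 93.8% and 96.4% in set 1. The 2 described events of exon 4 lay between 91.2% and 100% in set 2 and between 93.1% and 98.2% in set 1. A second event of exon 8, with exon 6 as its upstream partner, was at 93.5% or above in every library. The remaining 10 events of ARHGEF11 that had the depth were above 95% in every library, with a range of 96.1% to 100%. The last 4 of its 21 events were below 20 counts in some library.

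Exon 4 of ARHGEF12 was included in a minority of transcripts in set 2 and in a majority in set 1. Its inclusion level was 39.5%, 33.8% and 32.5% in set 2, against 56.6%, 55.9% and 54.4% in set 1. All libraries of set 2 lay below all of set 1, with a gap of -14.9 points between the nearest (set 2 minus set 1). Inclusion and skipping counts were 330 and 325, 264 and 332, and 146 and 195 in set 2, and 327 and 161, 231 and 117, and 390 and 210 in set 1. The 95% Wilson intervals reached up to 43.2% in set 2 and down to 50.3% in set 1. The exon lies near the start of the gene, and GENCODE release 29 has 3 transcripts with it and 1 with the junction that skips it.

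**Figure D3:**
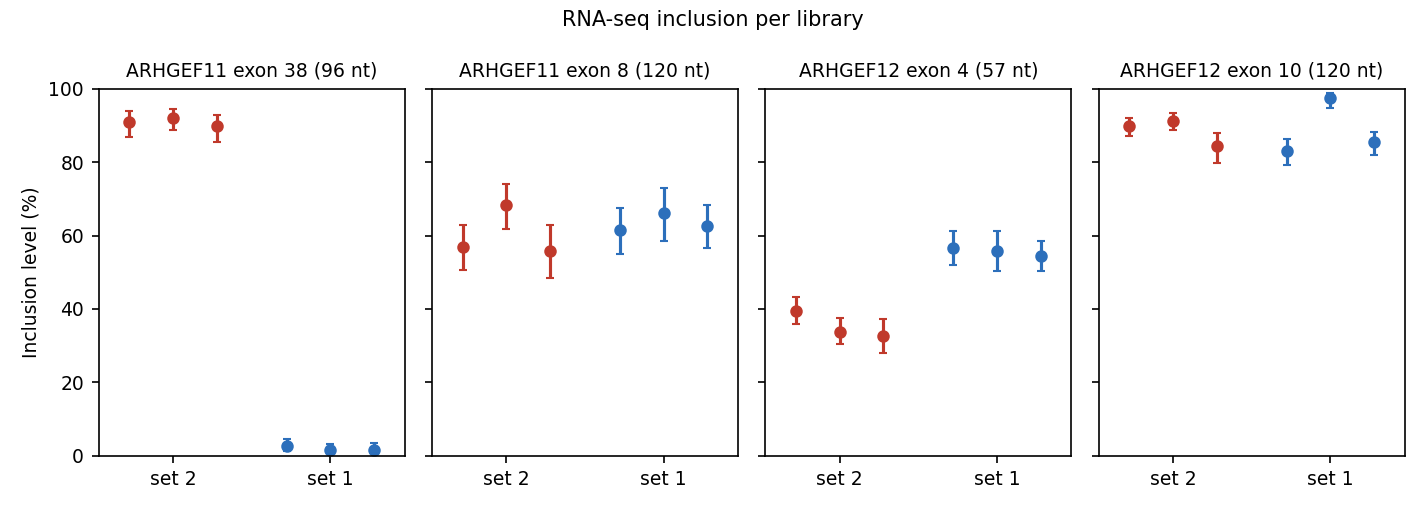
Inclusion level in percent in each RNA-seq library, set 2 left of set 1, with 95% Wilson intervals. The exons drawn are 38 and 8 of ARHGEF11 and 4 and 10 of ARHGEF12. Exon 38 of ARHGEF11 lay at 89.8% to 92.2% in set 2 and 1.59% to 2.52% in set 1, exon 4 of ARHGEF12 at 32.5% to 39.5% in set 2 and 54.4% to 56.6% in set 1, and the sets overlapped at the other exons drawn.

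RASL-seq measured the same ARHGEF12 exon in named lines. There the level is the plain share of the inclusion count, which comes from the junction into the exon. GS689 libraries had 22, 10 and 11 inclusion counts against 124, 123 and 83 skipping counts, which is 15.1%, 7.52% and 11.7%. PC3E libraries had 15, 35 and 11 inclusion counts against 47, 50 and 62 skipping counts, which is 24.2%, 41.2% and 15.1%. The lines touched, since GS689 replicate 1 and PC3E replicate 3 had the same share, and PC3E replicate 2 was the highest of the 6. Mean inclusion was 11.4% ± 3.78 in GS689 and 26.8% ± 13.2 in PC3E (SD, n = 3 each), a difference of -15.4 points and of -1.56 in log2 odds.

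In a quasi-binomial model over all 1124 events with enough counts, moderated with limma, this difference did not pass the threshold (unadjusted p = 0.00917, adjusted p = 0.088). Of all events tested in RASL-seq 5.87% passed, 2.22% higher and 3.65% lower in GS689. By unadjusted p the exon came 117th of the 1124, and 87 events differed by at least as many points. The value rested on single libraries: without PC3E replicate 2 the difference was -8.20 points (limma-moderated adjusted p = 0.293), and without PC3E replicate 3 it was -21.3 points and passed (adjusted p = 0.0438). At 62 to 146 counts per library the 95% Wilson intervals were wide, from 4.14% to 21.8% over GS689 and from 8.63% to 51.8% over PC3E. RASL-seq shares have no length correction and lay below every RNA-seq level of the same exon in all GS689 libraries and in all but 1 PC3E library.

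**Figure D4:**
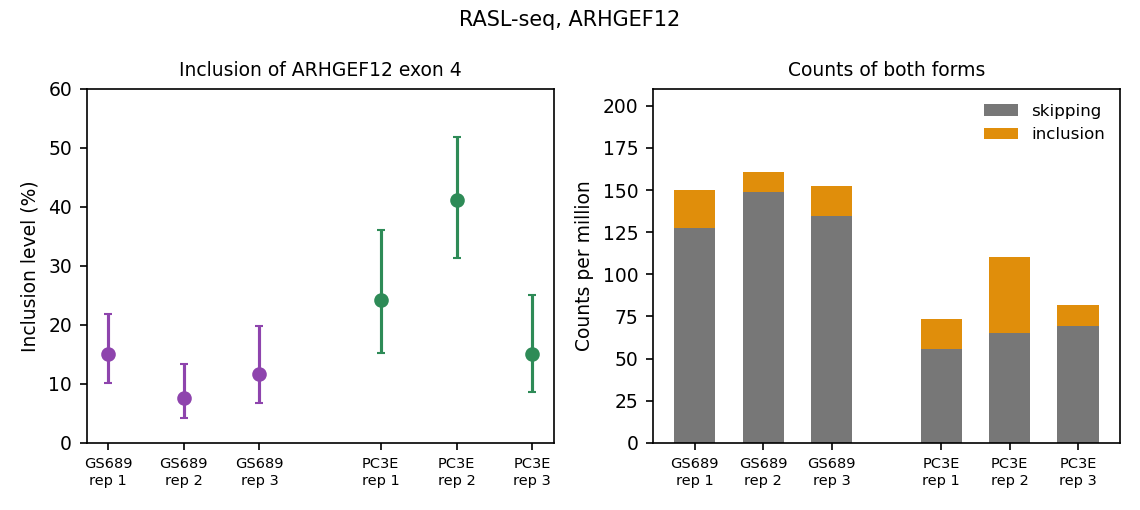
RASL-seq inclusion of ARHGEF12 exon 4 in percent with 95% Wilson intervals, and its inclusion and skipping CPM, in each library, GS689 left of PC3E. Inclusion was 7.52% to 15.1% in GS689 and 15.1% to 41.2% in PC3E, while skipping CPM averaged 137 in GS689 and 63.3 in PC3E.

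Exon 10 of ARHGEF12 was mostly included and showed no separation of the sets. Its level was 90.0%, 91.4% and 84.4% in set 2 and 83.1%, 97.6% and 85.5% in set 1. Library 2 of set 1 stood out, with 6 skipping counts beside 485 inclusion counts, while the other set 1 libraries had 67 and 64 skipping counts. Exon 3 was at 98.2%, 93.5% and 98.0% in set 2 and 98.8%, 91.1% and 95.4% in set 1. The remaining 16 of the 19 ARHGEF12 events were between 97.6% and 100% in every library.

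The 120-base exons shown above lie in a stretch where exon lengths of the genes matched. When exons were lined up so that exon 1 of ARHGEF11 met exon 3 of ARHGEF12, 5 of 39 pairs had equal length, the most of 13 shifts tried. A shift of 1 exon gave 4 of 40 and no shift gave 3 of 41, and beyond exon 8 of ARHGEF11 the shift of 2 gave no pair of equal length. In ARHGEF11 these were exons 3, 4, 5, 6 and 8, with 99, 50, 58, 179 and 120 bases, opposite exons 5, 6, 7, 8 and 10 of ARHGEF12. Base identity within the pairs was 62.6%, 66.0%, 70.7%, 44.1% and 45.8%. The last pair, exon 8 of ARHGEF11 and exon 10 of ARHGEF12, had 55 identical bases of 120 and was skipped in part in both genes. Inclusion over all 6 libraries was 55.8% to 68.2% for the ARHGEF11 exon and 83.1% to 97.6% for the ARHGEF12 exon.

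Levels of the genes were read from all counts of both forms summed over their events, as CPM of the table total. These sums depend on how many events a gene has, so they were compared only between libraries. In such bulk samples, fewer cells of a type and less RNA per cell cannot be told apart. Across the RNA-seq table, the sets did not overlap in 48.3% of 10813 genes, 29.3% higher and 19.1% lower in set 2, and the median ratio of set 2 to set 1 was 1.08. ARHGEF11 had 59.3, 61.6 and 48.0 CPM in set 2 against 43.2, 37.4 and 46.0 in set 1, so the sets were apart, at a ratio of medians of 1.37. Its sums carry exon 38 itself. From the 10 events above 95% alone, the values were 41.9, 40.6 and 32.6 CPM of all inclusion counts in set 2 and 33.4, 28.3 and 36.1 in set 1, and the sets overlapped. With skipping counts alone the order turned round, to 62.5, 67.7 and 56.7 in set 2 and 72.6, 73.2 and 71.0 in set 1, as CPM of all skipping counts (ratio 0.861). The junction from exon 37 to exon 39, which enters 2 events, made up 11.8%, 11.3% and 15% of those skipping counts in set 2, against 79.6%, 85.9% and 77.7% in set 1. Those counts also hold the junction from exon 37 to exon 38, as skipping of the 137-base exon. It gave 206, 276 and 223 counts in set 2 and 5, 3 and 3 in set 1. The difference in the level of ARHGEF11 thus changed with the counts that were summed.

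ARHGEF12 had 178, 173 and 96.4 CPM of the RNA-seq table in set 2 against 109, 75.9 and 114 in set 1. The third library of set 2 fell among those of set 1, so the sets overlapped (ratio of medians 1.59). With skipping counts alone, as CPM of all skipping counts, the values were 69.6, 66.4 and 41.0 in set 2 and 36.6, 20.9 and 38.5 in set 1. There the sets did not overlap (ratio 1.82). Exon 4 gave more of these skipping counts than any other event, 325, 332 and 195 in set 2 and 161, 117 and 210 in set 1. Values from skipping counts thus also carry the inclusion of exon 4, and the share over all genes was not counted for them. ARHGEF1, the remaining member of the RGS-RhoGEF family, had 88.3, 95.2 and 101.9 in set 2 and 87.7, 131 and 104 in set 1, and overlapped as well. None of its 13 events was apart by 5 points (0 of 13).

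**Figure D5:**
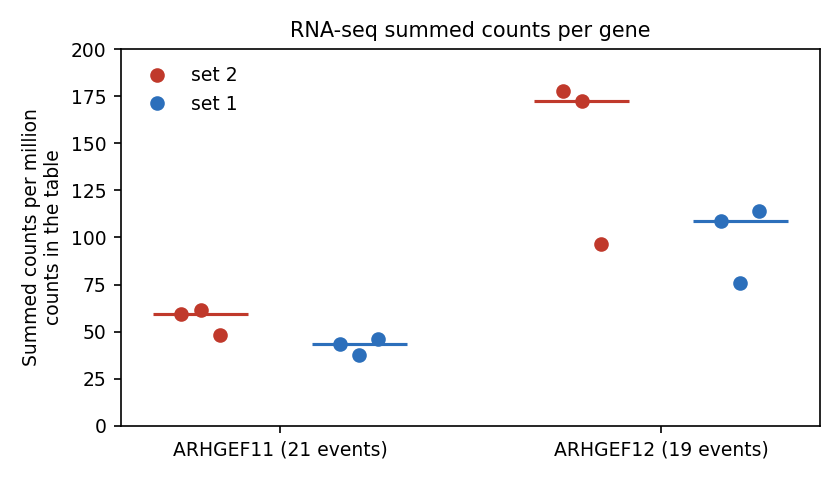
Summed counts, as CPM of the RNA-seq table for ARHGEF11 and ARHGEF12, with a point per library and a line at each median, set 2 left of set 1. The sets were apart for ARHGEF11 (48.0 to 61.6 in set 2, 37.4 to 46.0 in set 1) and overlapped for ARHGEF12, whose lowest library in set 2 was at 96.4.

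In RASL-seq, the summed count of ARHGEF12, which comes from 1 exon event, was higher in GS689. A change in gene level was not tested apart from a change in inclusion of that exon. Both forms together had 150, 161 and 152 CPM in GS689 and 73.2, 110 and 81.9 CPM in PC3E. The lines did not overlap, and the means were 154 ± 5.79 in GS689 and 88.5 ± 19.4 in PC3E (SD, n = 3 each). In limma-voom over all 1317 genes the change was 1.78-fold, or 0.83 ± 0.20 (SE) on the log2 scale, with an adjusted p of 0.00936. Among these, an event that matched several genes or none was counted as a gene of its own. Of all genes tested 29.8% passed, 16.4% higher and 13.4% lower in GS689. The skipped form carried the change, with 137 ± 10.95 CPM in GS689 and 63.3 ± 7.15 in PC3E, while the included form had 17.5 ± 5.25 in GS689 and 25.2 ± 17.8 in PC3E (SD, n = 3 each). Without PC3E replicate 3 the log2 change was 0.76 and no longer passed (limma adjusted p = 0.0522).

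The patterns of the 2 exons were set beside all other RNA-seq events of that depth by the mean absolute difference of inclusion over the 6 libraries. Nearest to exon 38 of ARHGEF11 was a 289-base exon of CTNND1, which encodes p120 catenin, at 9.30 points. A 63-base exon of SCRIB (a polarity scaffold), a 12-base exon of DNM1 (a dynamin), a 93-base exon of OSBPL3 (an oxysterol-binding protein) and a 36-base exon of MAGI1 (a junction scaffold) followed at 9.41, 10.3, 10.5 and 15.7 points. The median inclusion of the CTNND1 exon was 86.6% in set 2 and 16.8% in set 1, and that of the SCRIB exon 78.4% in set 2 and 8.71% in set 1. Nearest to exon 4 of ARHGEF12 was a 131-base exon of KLC1, a kinesin light chain, at 2.30 points, with medians of 31.1% in set 2 and 57.8% in set 1. Exons of OXR1, C5orf63, DDIAS and PARPBP followed at 2.59, 3.38, 4.17 and 4.29 points. These lists rank events by likeness over the same 6 libraries and carry no test.

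The wider pathway was read from 104 listed genes, chosen with earlier results of these data known. In RNA-seq 33 of their 1007 events (3.28%) were apart by at least 5 points, 14 higher and 19 lower in set 2, in 11 genes. CD44, a hyaluronan receptor known to bind ARHGEF12, gave 18 of the 33, 3 higher and 15 lower. Without CD44 the share was 15 of 961 events (1.56%), near the 1.13% of all events, with 11 higher and 4 lower. By role, the 33 events were 21 of 246 events upstream of the exchange factors, 2 of 16 in RhoA-type GTPases, 1 of 287 in effectors and their targets, 3 of 233 in other exchange factors, and 6 of 212 in the GTPase-activating proteins and the inhibitors. The 18 events of CD44 are among the 21 upstream.

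Upstream, a 9-base exon of PTK2, the focal adhesion kinase, was included at 32.8%, 34.0% and 29.1% in set 2 and 6.05%, 6.87% and 5.23% in set 1. PAK4, whose product binds ARHGEF11, had an 83-base exon at 77.7%, 65.4% and 69.3% in set 2 and 56.2%, 46.7% and 55.2% in set 1. In RHOC, a RhoA-like GTPase, a 69-base exon was at 43.6%, 43.7% and 44.7% in set 2 and 34.2%, 37.2% and 35.7% in set 1. All 3 were higher in set 2, with no overlap.

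Among the GTPase-activating proteins, which turn RhoA-type GTPases off, a 195-base exon of MYO9A was at 88.7%, 87.8% and 91.5% in set 2 against 51.7%, 42.1% and 43.3% in set 1. A 234-base exon of ARHGAP17 was at 85.8%, 77.1% and 73.0% in set 2 against 46.2%, 10.4% and 24.1% in set 1. A 90-base exon of MYO9B was at 59.8%, 75.5% and 60.7% in set 2 against 46.6%, 15.1% and 32.9% in set 1. The gaps were 36.1, 26.8 and 13.2 points, and library 2 of set 1 was the lowest in all 3. Another MYO9A exon, of 213 bases, was lower in set 2, at 91.5%, 91.2% and 85.2% in set 2 against 100% in each library of set 1. A 168-base exon of PPP1R12A, the targeting subunit of myosin phosphatase, was lower in set 2 by 8.97 points. Among other exchange factors, a 54-base exon of AKAP13 was lower in set 2 by 9.33 points, at 35.0%, 33.2% and 29.1% in set 2 and 72.4%, 44.3% and 46.0% in set 1. ARHGEF17 had an exon 6.98 points higher in set 2.

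In RASL-seq, 14 events in 10 of the listed genes were tested and 0 passed the limma-moderated test, against 5.87% of all events, with 6 at an unadjusted p under 0.05. Over all 1124 events, 227 were at an unadjusted p under 0.05 in that limma-moderated test. The largest difference was in a 48-base exon of MYO9B (91.1% in GS689 and 69.9% in PC3E, adjusted p = 0.0755 by the limma-moderated test). The AKAP13 exon named above averaged 67.7% in GS689 and 80.2% in PC3E (adjusted p = 0.157 by the same limma-moderated test). Of gene totals, 16 were tested and 8 passed in limma-voom, 3 higher and 5 lower in GS689, against 29.8% of all genes. Among the lower, ARHGEF10L, MCF2L and CD44 met the count filter only through PC3E, where they were high. They could not be tested when a PC3E library was left out. The median log2 change was -0.23 over the 16 and -0.00493 over all genes.

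The 3 higher totals were all of exchange factors. ARHGEF28 had 158 ± 8.43 CPM in GS689 and 72.9 ± 27.6 in PC3E (2.28-fold). AKAP13 had 164 ± 17.8 in GS689 and 93.1 ± 14.4 in PC3E (1.75-fold). ARHGEF10 had 24.1 ± 5.82 in GS689 and 9.52 ± 1.52 in PC3E (2.42-fold, SD, n = 3 each for all 3 genes). Their adjusted p in limma-voom was 0.00394, 0.00969 and 0.0283. ARHGEF10 no longer passed without PC3E replicate 1 or without PC3E replicate 3, at limma adjusted p of 0.0657 and 0.0577.

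The 5 lower totals included 2 exchange factors that were close to undetected in GS689. ARHGEF10L had 2 counts in all GS689 libraries and 89 in those of PC3E, a ratio of PC3E to GS689 of 42.8 (95% counting interval 11.5 to 359). MCF2L had 1 count in GS689 and 54 in PC3E, a ratio of 51.9 (8.93 to 2089). CD44 had 4 counts in GS689 and 279 in PC3E over the junctions in the table. Its skipping counts alone were too few to be tested, so gene level and exon inclusion cannot be told apart there. DIAPH2, a formin, had 172 ± 25.5 CPM in GS689 and 294 ± 18.4 in PC3E. MPRIP, which tethers myosin phosphatase to actin, had 10362 ± 1667 in GS689 and 27531 ± 2430 in PC3E (SD, n = 3 each). The limma-voom log2 changes of DIAPH2 and MPRIP were -0.80 and -1.42.

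Listed epithelial and mesenchymal markers also differed between the lines. In RASL-seq the 4 epithelial genes tested (LSR, OCLN, SPINT2 and LLGL2) were lower in GS689 by limma-voom, 4 of 4. The 2 mesenchymal genes tested (VIM and MAP1B) were higher, 2 of 2. Over all genes tested, 13.4% were lower and 16.4% higher in GS689. LSR met the count filter only through PC3E, where it was high, so it could hardly come out otherwise. The part of these markers in the values of ARHGEF11, ARHGEF12 and the listed genes was not tested.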

How the data were processed

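Members and gene lists were chosen with earlier results of these data known. The submitters' processing notes name STAR 2.5.2a, kallisto 0.43.0 and the build hg19. What each tool did is not given in the sources used here, nor are steps particular to RASL-seq. Per the labels, the extraction used Trizol and the library kit was for stranded total RNA. Per the file headers, the deposited RASL-seq table gives a pair of whole-number counts per library and event, and the RNA-seq table gives inclusion and skipping counts with effective lengths, 101 for skipping and 102 to 202 for inclusion. The number of columns of values left unused was 0.

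Empty RASL-seq cells were read as 0. Its first count was taken as inclusion: over 1650 events shared with RNA-seq the first-count share and RNA-seq inclusion correlated at r = 0.87, a description across events. Where the junction into an exon also serves as a skipping junction elsewhere in the table, its counts in both places were equal in every library (51 of 51 cases). A junction can enter several events, so table totals are not depth.

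Genes were taken from exon and intron lengths in GENCODE release 29, which is on another build. In RNA-seq 109246 events matched 1 gene, 2750 several and 2820 none, and in RASL-seq the numbers were 1934, 43 and 46. Printed positions are those of the tables.

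RASL-seq inclusion was tested by a quasi-binomial model per event with an F test, dispersions moderated by limma 3.58.1 in R 4.3.3. Events needed a mean of 10 counts per library, and a call needed a Benjamini-Hochberg adjusted p under 0.05 and 5 points of difference. Totals were tested with limma-voom after scaling by trimmed means, with each event that matched several genes or none kept as its own total. All tests were two-sided, ran over the whole table and were checked on simulated data. RNA-seq libraries entered no test. Every event of both genes was accounted for, and those with 20 counts in each library were described singly when inclusion lay between 5% and 95% in any library. Listed genes were named where past the threshold, apart from items that are not reported here, and the 5 most alike events of other genes were named for each gene's most variable exon.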

Additional observations from a re-analysis of the deposited data

How the results depend on the processing

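For ARHGEF12 exon 4 in RASL-seq, 10 of 11 alternatives kept the direction and stayed short of the threshold. The adjusted p ran from 0.0438 to 0.293, and it passed only without PC3E replicate 3. Leaving out 1 library at a time gave log2 odds of -1.98 to -0.87. The ARHGEF12 total kept its call in 10 of 11, and leave-one-out log2 changes ran from 0.69 to 0.97, lost only without PC3E replicate 3 (adjusted p = 0.0522 by limma). Correlations of totals were 0.25, 0.16 and -0.02 for the shared replicate numbers 1, 2 and 3, against -0.26 to 0.10 for unlike numbers. These values do not settle whether the numbers pair the libraries. The replicate block passed 88 events and 465 totals over the whole table, against 66 and 393 without it. With the replicate block, exon 4 had log2 odds of -1.63 (limma-moderated adjusted p = 0.0665) and the total 0.81 (limma adjusted p = 0.0057), and 2 listed events passed (ECT2 and MPRIP) against 0. Leave-one-out counts were 0 to 1 for listed events, and 4 to 7 of the listed totals, against 8. Fewer listed totals could be tested without a PC3E library (13 against 16). Over all events 66 passed, against 25 with limma on the log2 ratio (pseudocount 0.5). Over all genes 393 of 1317 totals passed, against 242 of 905 that could be tested from skipping counts alone and 251 of 1287 without GS689 replicate 1. In RNA-seq the 2 events apart by 5 points stayed 2 at minimums of 10 and 50 counts and with raw shares, where the gaps were 89.7 and -14.6 points. The ARHGEF11 ratio of 1.37 was 0.861 from skipping counts alone, where the junction from exon 37 to exon 39 differs in share, and 1.21 from the events above 95%, an alternative chosen after seeing the data. The ARHGEF12 ratio stayed between 1.44 and 1.82, the highest from skipping counts alone, which also carry the skipping of exon 4. The depth of 62 to 146 RASL-seq counts limits exon 4, and no library of the RNA-seq sets could be assigned to a line.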
